A study of Mus musculus with 10 samples.

Results

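The trace amine-associated receptor (Taar) genes of the mouse form 1 cluster on chromosome 10, and the genes described here are 10 genes that lie outside it, 5 on each side: Eya4, Rps12, Slc18b1, Vnn3 and Vnn1 on the side of Taar1, and Stx7, Moxd1, Ctgf, Enpp1 and Enpp3 on the side of Taar9. They were chosen by name and position, with earlier results of these data known. All 10 had a row among the 24421 rows of the raw count table. RNA was sequenced from the whole main olfactory epithelium (MOE) of mice at postnatal day 14, in 10 libraries. The labels give the strain of all 10 as C57BL/6, and the study describes its mouse lines as being on a mixed background of C57BL/6J and 129. The 3 wild-type (WT) libraries had both TAAR enhancers on both alleles, the 3 heterozygous (het) libraries came from mice with TAAR enhancers 1 and 2 deleted on 1 allele, and the 4 homozygous (homo) libraries from mice with both enhancers deleted on both alleles. The deletions were made with CRISPR-Cas9 in zygotes and are therefore carried by every cell of the animal, not only by olfactory neurons. The study describes the mice as littermates, and each library was taken as 1 mouse.

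TAARs are receptors for volatile amines, and an olfactory sensory neuron (OSN) that chooses a Taar gene expresses that gene and silences the rest of its receptor genes. Enhancers raise the transcription of genes on the same chromosome, often over long distances, and the reach of an enhancer is commonly limited by the borders of the chromatin domain that holds it. Both deleted enhancers lie within the cluster, TAAR enhancer 1 next to Taar2 on the Taar1 side of it and TAAR enhancer 2 further inside, in the gap from Taar6 to Taar7a, so that genes on both sides of the cluster lie on the same chromosome as the deletions. None of the 10 flanking genes encodes an olfactory receptor, and most are expressed in many tissues. The comparisons below ask whether their RNA differed between genotypes.

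In the mouse build mm10 with the GENCODE M21 annotation, the cluster from Taar1 to Taar9 spans chr10:23920356-24109534, which is 189 kb. Vnn1 (23894688 to 23905343, plus strand) ends 15 kb before Taar1 and is the nearest of the 10 genes, followed on that side by Vnn3 (23851462 to 23869843, plus strand) at 50.5 kb, Slc18b1 (23796986 to 23827968, plus strand) at 92.4 kb, Rps12 (23785183 to 23787275, minus strand) at 133.1 kb and Eya4 (23102963 to 23350786, minus strand) at 569.6 kb. On the other side, Stx7 (24149302 to 24190222, plus strand) begins 39.8 kb after the end of the cluster, Moxd1 (24223517 to 24302790, plus strand) lies at 114.0 kb, Ctgf (24595442 to 24598683, plus strand, listed there as Ccn2) at 485.9 kb, Enpp1 (24637914 to 24712159, minus strand) at 528.4 kb and Enpp3 (24772406 to 24842823, minus strand) at 662.9 kb. All 10 are annotated as protein-coding, and the counts are of whole genes. Some of the counts may include reads of other genes, since the strand setting and the handling of reads with several alignments are not given in the sources used here. Of the 50-base stretches in the transcripts of Rps12, 25.07% also occur in 29 other genes, led by the pseudogene Rps12-ps3, and Rps12 holds 3 small nucleolar RNA genes. Of those of Ctgf, 17.23% occur in Gm15270, a transcript annotated on the opposite strand across part of Ctgf. For the remaining 8 genes at most 0.96% of the stretches are shared, and Vnn1 and Vnn3, which are related enzymes, share none with each other or with any other gene.

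Promoter sequences were taken from RefSeq (GRCm38.p6, the assembly behind mm10), which had an entry in the table used here for 8 of the 10 genes and not for Vnn1 and Ctgf. The sequences of the nearest genes with an entry, 2 on each side, are shown because they lie closest to the deletions, beside that of Taar9 at the end of the cluster. Each runs 5′ to 3′ over 250 bases before the annotated start and 30 bases after it, and capitals mark the CpG dinucleotides.
Vnn3, chr10:23851212-23851491, plus strand: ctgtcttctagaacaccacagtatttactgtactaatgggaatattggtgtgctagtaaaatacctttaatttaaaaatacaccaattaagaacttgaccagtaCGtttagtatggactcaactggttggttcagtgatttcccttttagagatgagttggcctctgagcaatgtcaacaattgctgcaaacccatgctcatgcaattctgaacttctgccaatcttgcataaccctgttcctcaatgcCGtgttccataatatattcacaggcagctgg
Slc18b1, chr10:23796736-23797015, plus strand: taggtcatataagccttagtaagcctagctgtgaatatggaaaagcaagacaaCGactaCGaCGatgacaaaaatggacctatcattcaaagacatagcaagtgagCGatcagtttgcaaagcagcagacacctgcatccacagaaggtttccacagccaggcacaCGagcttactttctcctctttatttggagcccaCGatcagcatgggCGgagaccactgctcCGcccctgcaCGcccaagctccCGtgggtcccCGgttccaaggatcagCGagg
Stx7, chr10:24149039-24149318, plus strand: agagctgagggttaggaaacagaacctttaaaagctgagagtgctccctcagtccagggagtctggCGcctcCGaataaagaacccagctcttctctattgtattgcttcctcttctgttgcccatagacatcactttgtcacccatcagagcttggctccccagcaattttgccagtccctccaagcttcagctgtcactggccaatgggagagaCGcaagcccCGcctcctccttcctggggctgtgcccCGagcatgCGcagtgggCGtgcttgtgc
Moxd1, chr10:24223267-24223546, plus strand: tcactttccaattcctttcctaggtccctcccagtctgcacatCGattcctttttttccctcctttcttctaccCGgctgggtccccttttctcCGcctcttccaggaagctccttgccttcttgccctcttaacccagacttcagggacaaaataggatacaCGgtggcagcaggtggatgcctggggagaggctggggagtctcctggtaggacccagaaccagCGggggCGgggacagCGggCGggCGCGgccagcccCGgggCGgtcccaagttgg
Taar9, chr10:24109505-24109784, minus strand: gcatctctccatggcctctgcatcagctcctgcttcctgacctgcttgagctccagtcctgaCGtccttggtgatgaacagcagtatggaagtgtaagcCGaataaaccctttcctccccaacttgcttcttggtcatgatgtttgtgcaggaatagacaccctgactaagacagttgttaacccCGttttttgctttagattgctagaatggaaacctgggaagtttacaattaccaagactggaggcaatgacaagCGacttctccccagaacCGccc

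The flanking genes differed among themselves in CpG content. The stretches shown held 2 CpGs for Vnn3, 12 for Slc18b1, 7 for Stx7 and 12 for Moxd1, against 5 for Taar9. Over windows of 300 bases, to 50 bases after the start, the 8 flanking promoters held between 4 (Vnn3) and 36 (Eya4) CpGs with a median of 13, the 11 olfactory Taar promoters with an entry between 0 and 5 with a median of 2, and all 32851 promoters in the table a median of 7. Rps12 had 29, Enpp1 22 and Enpp3 5. The motif CCCNNGGG, which early B-cell factors bind, was found on either strand in 4 of 8 flanking promoters (Rps12, Slc18b1, Stx7 in a second annotated window, and Moxd1), in 0 of 11 Taar promoters and in 13.7% of all promoters. A window that stopped at the start held it in 1 of the 8, so that these matches lay mostly at or just after the start. The TATA box letters TATAAA occurred in 1 flanking promoter (Enpp3), 6 Taar promoters and 13.6% of all promoters. The homeodomain letters TAATTA were in 0 flanking promoters, 1 Taar promoter and 5.3% of all, and the TEAD letters GGAATG in 0, 2 and 14.7% of all. These are matches of letters only. In the Taar windows the bases after the annotated start open with ATG, the start codon, as the Taar9 stretch above shows. The Taar windows thus lie before a coding start and may not hold the start of transcription. Their counts are therefore not compared like with like against those of the flanking genes.

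Depth was similar between genotypes, with total counts per library between 21423861 and 27712948. The summed level of the 14 olfactory Taar genes, on which the deletions act, checked the labels. It was 34.2, 35.2 and 36.7 CPM (the count scaled to the library total) in WT, 32.4, 36.2 and 30.9 in het and 0.0934, 0.221, 0.127 and 0.18 in homo libraries, so that homo libraries retained 0.439% of the WT mean. All 8 markers of mature OSNs, such as Omp, were counted in every library, and their summed level lay between 8280 and 10000 CPM. Fibroblast markers (5800 to 10900 CPM) and bone and cartilage markers (402 to 785 CPM) were also present and varied by 1.88-fold and 1.95-fold over the libraries. In such bulk samples fewer cells of a type and less RNA per cell cannot be told apart. Y-linked genes were counted in the 4 libraries WT-1, het-1, homo-3 and homo-2, and no flanking gene had separate ranges in libraries with and without them.

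The nearest genes, Vnn1 and Vnn3, encode pantetheinases, enzymes that split pantetheine into pantothenic acid (vitamin B5) and cysteamine. Vnn1 was counted at 28, 35 and 23 reads in WT, 32, 25 and 25 in het and 32, 17, 24 and 35 in homo libraries, which is 1.05, 1.37 and 0.994 CPM, 1.4, 1.05 and 1.02 CPM, and 1.49, 0.752, 1.02 and 1.26 CPM. Both the highest and the lowest library were homo, and the range of WT lay inside that of homo. The genotype means were 1.14 ± 0.203 (SD, n = 3), 1.16 ± 0.214 (n = 3) and 1.13 ± 0.319 CPM (n = 4), and the log2 fold change between homo and WT was -0.0049 (SE 0.317, 95% interval -0.675 to 0.665), which ran from -0.171 without homo-1 to 0.145 without WT-2. At this depth a loss of up to 37.4% or a gain of up to 58.6% of Vnn1 RNA remained within the interval.

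Vnn3 had the fewest reads of the 10 genes. Its counts were 11, 15 and 7 in WT, 12, 3 and 7 in het and 12, 23, 13 and 12 in homo libraries, or 0.411, 0.586 and 0.303 CPM, 0.526, 0.126 and 0.285 CPM, and 0.56, 1.02, 0.55 and 0.433 CPM. The homo-2 library was highest and the het-2 library, at the floor of 3 counts that a count of 0 allows, was lowest, while the remaining 8 libraries overlapped across genotypes. Means were 0.433 ± 0.143 CPM in WT, 0.312 ± 0.202 in het and 0.64 ± 0.258 in homo libraries. On the log2 scale homo differed from WT by 0.55 (SE 0.487, interval -0.482 to 1.58) and from het by 1.03 (SE 0.518, interval -0.0652 to 2.12), and het from WT by -0.48 (SE 0.567, interval -1.68 to 0.716). The difference between homo and het was the nearest to the threshold among all members and comparisons, with an unadjusted p of 0.0636 in edgeR's quasi-likelihood test, and an adjusted p of 0.999. Single libraries moved these values by over 1.5 times. Without homo-2 the value between homo and WT was 0.22, that between het and WT ran from -1.06 without het-1 to -0.115 without het-2, and that between homo and het from 0.663 without het-2 to 1.61 without het-1.

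Slc18b1 and Stx7 belong to vesicles. Slc18b1 is a vesicular polyamine transporter, and Stx7 is a syntaxin, a SNARE protein in the fusion of late endosomes. In WT Slc18b1 measured 40.5, 38.6 and 33.9 CPM, in het 37.6, 41.2 and 35.6 CPM and in homo libraries 33.3, 34.1, 34.3 and 38.2 CPM. Of the homo libraries, homo-1 lay just below the lowest WT library. The homo-2 and homo-3 libraries lay near the lower end of the WT range and homo-4 further inside it, so that the groups overlapped. The difference between homo and WT was -0.10 (SE 0.0976, interval -0.308 to 0.105) on the log2 scale, for means of 35.0 ± 2.21 and 37.6 ± 3.39 CPM, and that between het and WT was 0.017 (SE 0.104). The first ran from -0.177 without WT-3 to -0.0493 without WT-1, and the second from -0.0596 without WT-3 to 0.0754 without WT-1.

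Stx7, the first gene beyond the Taar9 end, measured 132, 156 and 142 CPM in WT, 135, 145 and 151 CPM in het and 133, 123, 144 and 129 CPM in homo libraries. The homo-2 and homo-4 libraries were below every WT and het library, and homo-1 and homo-3 were within their range. The difference between homo and WT was -0.11 (SE 0.087, interval -0.295 to 0.073), with means of 132 ± 8.9 and 143 ± 11.9 CPM, and it ran from -0.168 without WT-1 to -0.0505 without WT-2. The interval leaves room for a loss of up to 18.5% and a gain of up to 5.19%. Het libraries averaged 144 ± 8.29 CPM, a difference from WT of 0.0036 (SE 0.0931, interval -0.193 to 0.201), which ran from -0.0482 without WT-1 to 0.0697 without WT-2.

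Moxd1 encodes a relative of dopamine beta-hydroxylase, the copper enzyme that makes noradrenaline. Its level was 30.6, 32.6 and 30.3 CPM in WT, 31.9, 34.7 and 26.0 CPM in het and 29.9, 30.2, 32.1 and 29.0 CPM in homo libraries. The highest and the lowest libraries were both het, and WT and homo libraries overlapped within a narrow range. Means were 31.2 ± 1.24, 30.9 ± 4.42 and 30.3 ± 1.31 CPM, and the differences from WT were -0.034 (SE 0.108, interval -0.262 to 0.194) for homo and -0.013 (SE 0.115, interval -0.257 to 0.23) for het. They ran from -0.0634 without homo-3 to -0.00132 without homo-4, and from -0.11 without het-2 to 0.104 without het-3.

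Eya4 and Rps12 act in transcription and translation. Eya4 is a transcriptional coactivator and phosphatase of the Eyes absent family, and Rps12 is a protein of the small (40S) ribosomal subunit. Eya4 measured 72.5, 90.4 and 73.2 CPM in WT, 83.7, 105 and 72.7 CPM in het and 70.3, 95.3, 75.0 and 74.5 CPM in homo libraries. In each genotype the library numbered 2 was highest, well above the remaining libraries of that genotype. The WT and homo means, 78.7 ± 10.2 and 78.8 ± 11.2 CPM, differed by 0.0078 on the log2 scale (SE 0.135, interval -0.278 to 0.294), with values from -0.111 without homo-2 to 0.115 without WT-2. Het libraries averaged 87.0 ± 16.3 CPM, which was 0.145 above WT (SE 0.144, interval -0.16 to 0.45), and this value turned to -0.015 without het-2. Rps12 measured 172, 178 and 188 CPM in WT, 161, 169 and 206 CPM in het and 173, 153, 190 and 182 CPM in homo libraries. The WT range lay inside those of both het and homo, and the difference between homo and WT was -0.034 (SE 0.0961, interval -0.237 to 0.17), for means of 175 ± 16.2 and 179 ± 8.12 CPM, and was 0.0138 without homo-2. Het libraries averaged 179 ± 23.7 CPM, at -0.0054 from WT (SE 0.103), and the difference ran from -0.108 without het-3 to 0.062 without het-1.

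Ctgf encodes connective tissue growth factor, a secreted matrix protein of connective tissue and bone and a target of the YAP coactivator. It measured 62.0, 45.5 and 38.1 CPM in WT, 52.7, 51.6 and 51.6 CPM in het and 63.8, 37.2, 51.8 and 43.1 CPM in homo libraries. The 3 het libraries were nearly alike, whereas WT and homo each spread over most of the whole range. The fibroblast markers, summed, were 10900, 8410 and 6170 CPM in the WT libraries, in the same order. They were 9220, 5800 and 7410 CPM in the het and 9890, 8340, 8770 and 7660 CPM in the homo libraries. The het libraries, nearly alike in Ctgf, thus differed in these markers. Over all 10 libraries Ctgf and these markers had r = 0.573 (permutation p = 0.0833, adjusted 0.554) and rho = 0.697 (permutation p = 0.0301, adjusted 0.552), and r was 0.703 without WT-3 and het-2. The means, 48.5 ± 12.2, 52.0 ± 0.628 and 49.0 ± 11.5 CPM, gave differences from WT of 0.016 (SE 0.182, interval -0.377 to 0.41) for homo and 0.097 (SE 0.194, interval -0.323 to 0.517) for het. The first ran from -0.147 without homo-1 to 0.23 without WT-1, and the second from -0.0563 without WT-3 to 0.316 without WT-1.

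Enpp1 and Enpp3 are nucleotide pyrophosphatases of the cell surface. Enpp1 makes pyrophosphate, an inhibitor of mineralization, from extracellular ATP, and Enpp3 is best known from basophils and mast cells. Enpp1 measured 34.5, 41.2 and 36.6 CPM in WT, 36.5, 41.1 and 40.8 CPM in het and 37.1, 39.2, 39.2 and 42.6 CPM in homo libraries. All 3 genotypes overlapped, and homo exceeded WT by 0.084 (SE 0.0939, interval -0.115 to 0.283), for means of 39.5 ± 2.28 and 37.4 ± 3.43 CPM, and het, at 39.5 ± 2.55 CPM, exceeded WT by 0.076 (SE 0.10). These were 0.0249 and 0.023 without WT-1, and 0.154 and 0.152 without WT-2. For Enpp3 the values were 4.07, 4.81 and 4.06 CPM in WT, 5.97, 3.62 and 2.89 CPM in het and 4.48, 7.52, 4.06 and 3.93 CPM in homo libraries. The homo-2 library stood above all others, the 3 het libraries were widely spread and the remaining homo libraries lay close to WT. Enpp3 in homo libraries averaged 5.0 ± 1.7 CPM against 4.31 ± 0.428 CPM in WT, a difference of 0.22 (SE 0.265, interval -0.345 to 0.778), which was -0.062 without homo-2. Het libraries averaged 4.16 ± 1.61 CPM, at -0.056 from WT (SE 0.286), with values from -0.411 without het-1 to 0.158 without het-3.

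**Figure D1:**
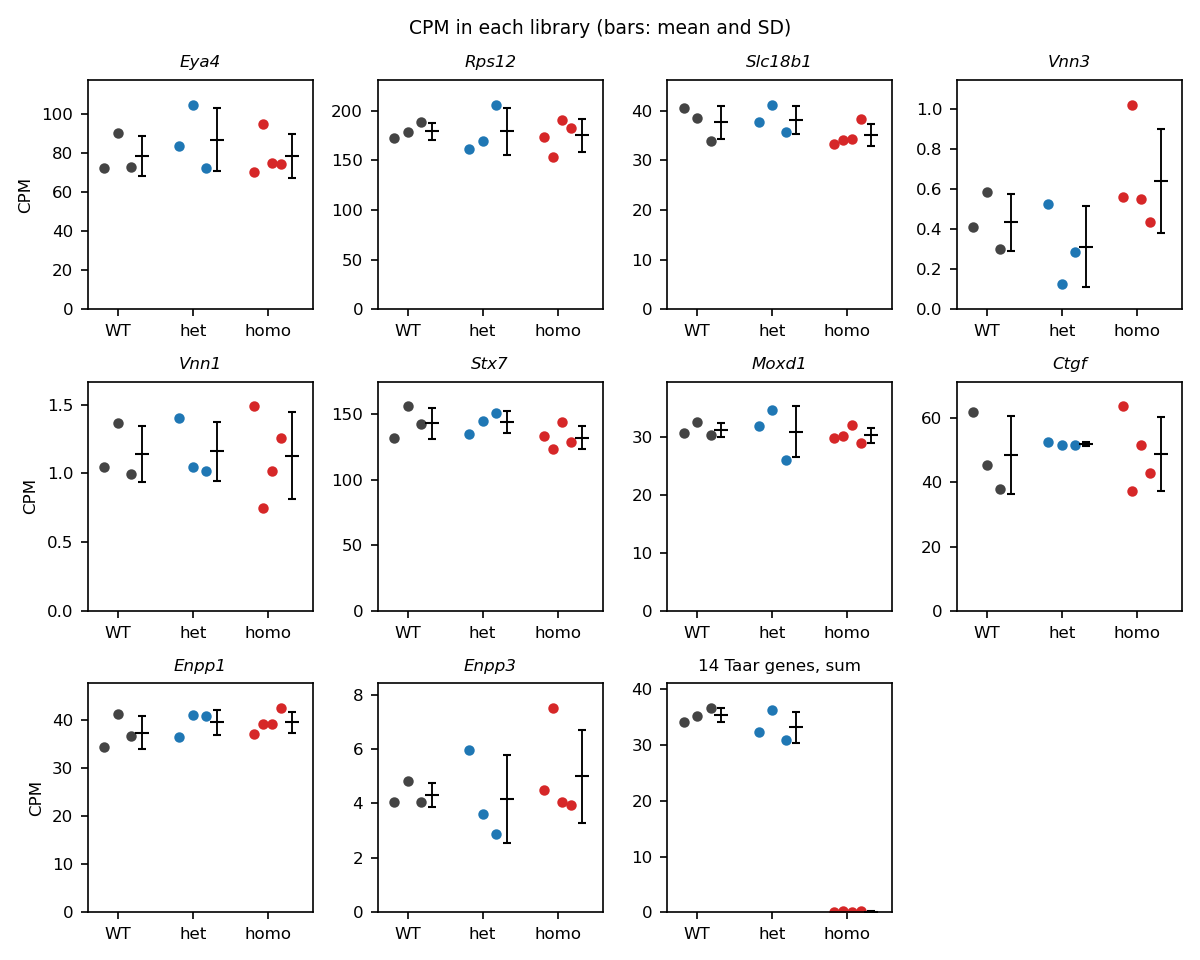
Level of each flanking gene and of the 14 summed olfactory Taar genes, in CPM on a linear axis from 0, with 1 point for each library by genotype (3 WT, 3 het, 4 homo) and bars for the mean and SD. The Taar sum is 0.0934 to 0.221 CPM in the homo libraries against 34.2 to 36.7 CPM in WT, whereas the genotypes overlap for each of the 10 flanking genes.

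Across all members, no flanking gene passed the test in any comparison between genotypes. Between homo and WT 0 of 10 were called, where edgeR called 12 of 17197 genes (0.0698%), all of them olfactory Taar genes. Between het and WT 0 of 10 were called, as were 0 of all genes (0.0%) by edgeR and by DESeq2. Between homo and het 0 of 10 were called among 13 genes (0.0756%), which were 12 Taar genes and Bglap3, a copy of the osteocalcin gene named after its values were seen. The adjusted p of every member was 0.999 or above. At an unadjusted p under 0.05, a level that 2.41%, 1.92% and 2.48% of all genes passed in the 3 comparisons, 0 of 10 members passed in each. Same-numbered WT and het libraries were taken as pairs from their values, since the labels give no pairs. With these pairs as a block in WT and het alone, 3 genes were called between het and WT. They were Fos, Crisp1 and Eps8l1, which are named from their values, and no flanking gene.

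The ranges of the library values gave the same count. Levels did not overlap between homo and WT for 3.55% of all genes tested, between het and WT for 5.22% and between homo and het for 3.93%, and for 0 of 10 flanking genes in each case. With the number of deleted alleles (0, 1 or 2) as a linear term, 0 of 10 members were called and 0 passed at an unadjusted p under 0.05, against 0.0% and 2.85% of all genes. That term called none of the Taar genes either with edgeR, whose levels differed little between WT and het, while DESeq2 called 12 genes with it, 11 of them Taar genes and the other S100a8, named after its value was seen. The slopes nearest to the threshold were those of Stx7, -0.058 per allele (SE 0.0425, interval -0.148 to 0.0313), Vnn3, 0.315 (SE 0.251), and Slc18b1, -0.054 (SE 0.0479).

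By direction, 5 flanking genes had a positive and 5 a negative log2 fold change between homo and WT. Their median was 0.0015, against 0.00012 over all genes, and their median absolute change was 0.059, against 0.082 over all genes tested and 0.0812 over the 788 other genes tested on chromosome 10. Between het and WT 6 members were positive and 4 negative (median 0.011, against -0.00088 over all genes), and between homo and het 3 were positive and 7 negative (median -0.028, against -0.00097). Homo against het, the 9 genes other than Vnn3 ran from -0.137 (Eya4, SE 0.134) to 0.27 (Enpp3, SE 0.267). The sides of the cluster gave values of similar size. On the Taar1 side the changes between homo and WT ran from -0.10 to 0.55 with a median of -0.0049, and on the Taar9 side from -0.11 to 0.22 with a median of 0.016. The outermost genes, Eya4 and Enpp3, and the innermost, Vnn1 and Stx7, all had intervals that included 0.

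**Figure D2:**
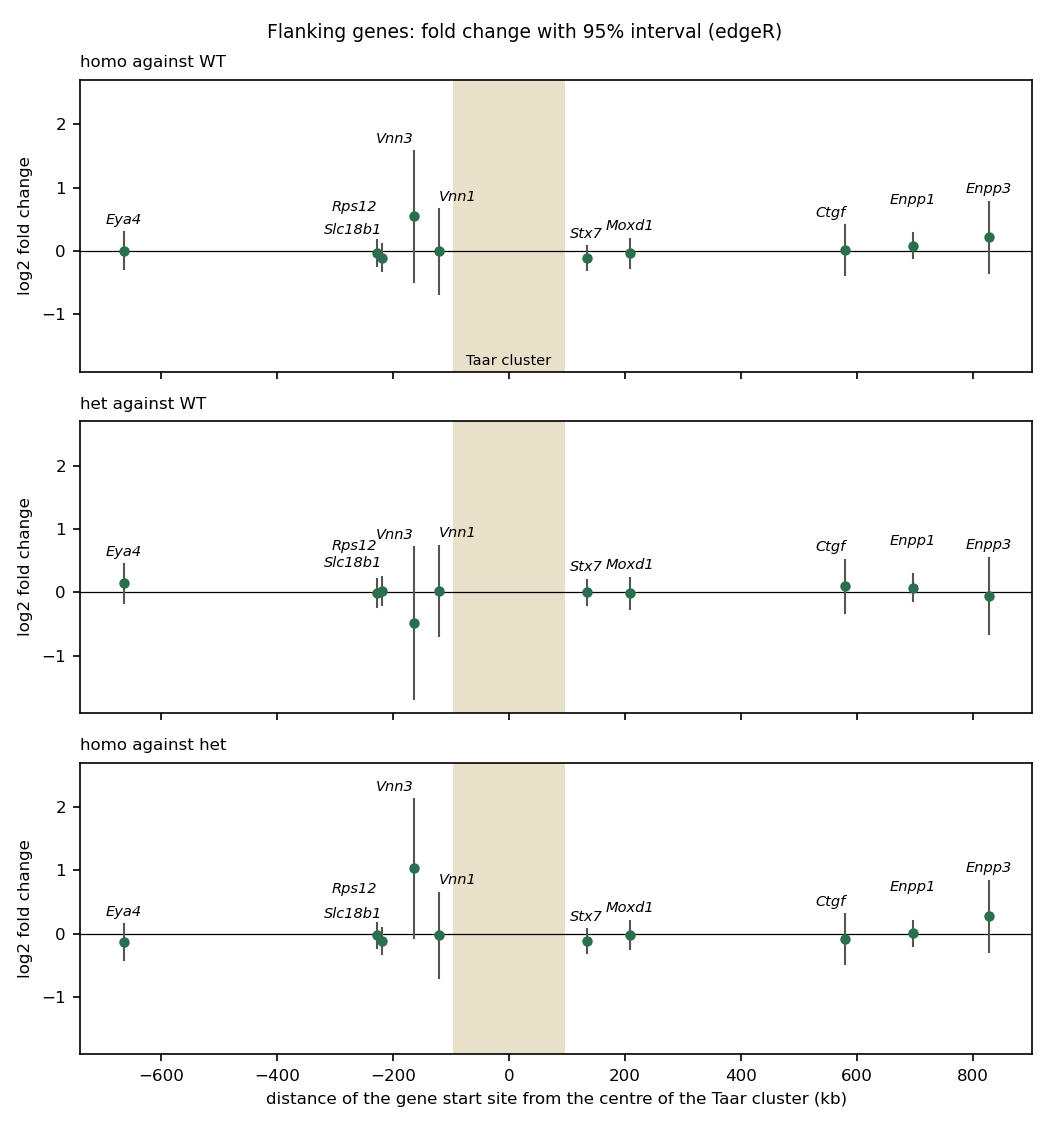
Log2 fold change (points) with its 95% interval (bars) of each flanking gene in the 3 comparisons, plotted by the distance of its annotated start from the centre of the Taar cluster in kb, with the cluster shaded. Every interval includes 0, and the widest, those of Vnn3 (-0.482 to 1.58 between homo and WT), belong to the gene with the fewest reads.

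The size of a change that could have been missed differed between genes. The sizes given here refer to RNA of the whole MOE, not to OSNs that express a Taar gene. Between homo and WT the intervals of all 10 genes excluded a halving, and those of 9 excluded a doubling, the exception being Vnn3. For the 7 genes above 20 CPM the intervals were narrower, and the widest limits among them were those of Ctgf, a loss of 23.0% or a gain of 32.8%. The narrowest interval was that of Stx7, with a half-width of 0.184 on the log2 scale. The biological coefficient of variation in the fit lay between 9.05% for Stx7 and 30% for Vnn3, around a common value of 13.9%. It was 21.4% for Vnn1 and 23.4% for Enpp3, which had few reads, but also 16.9% for Ctgf and 12.8% for Eya4, both with more reads in all than Enpp1 at 9.68%. Between het and WT the intervals of all 10 genes excluded a doubling and those of 9 a halving, again with Vnn3 as the exception.

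Levels of different genes were compared per length, as CPM per kb of merged exons, over the 10 libraries. Rps12 was highest at 87.4 ± 7.52 (SD, n = 10), followed by Stx7 at 31.1 ± 2.32, Ctgf at 17.4 ± 3.13, Slc18b1 at 11.3 ± 0.881, Moxd1 at 9.61 ± 0.727, Eya4 at 8.62 ± 1.26, Enpp1 at 3.79 ± 0.254, Enpp3 at 0.755 ± 0.219, Vnn1 at 0.472 ± 0.0957 and Vnn3 at 0.265 ± 0.132 CPM per kb. Rps12 stood at percentile 97.7 of the 17027 genes tested that had a length, Stx7 at 90.6, Enpp1 at 42.0 and Vnn3 at 6.2. The library ranges of Slc18b1 and Moxd1, of Moxd1 and Eya4, of Enpp3 and Vnn1 and of Vnn1 and Vnn3 overlapped, so that the order within these pairs is not separated from the spread between libraries. The other neighbours in the order had separate ranges. The merged exons of Rps12 measure 2027 bases in 2 blocks, which includes introns that some of its annotated transcripts retain, and its level per kb is lowered by this. Vnn3 and Enpp3, low in this order, also had the fewest CpGs among the 8 promoters, 4 and 5. The other genes did not follow their CpG counts. Eya4 had the most, 36, and Enpp1 had 22, but both stood below Stx7, which had at most 12. The nearest gene on the Taar1 side was thus among the least abundant and the nearest on the Taar9 side among the most abundant of the 10.

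**Figure D3:**
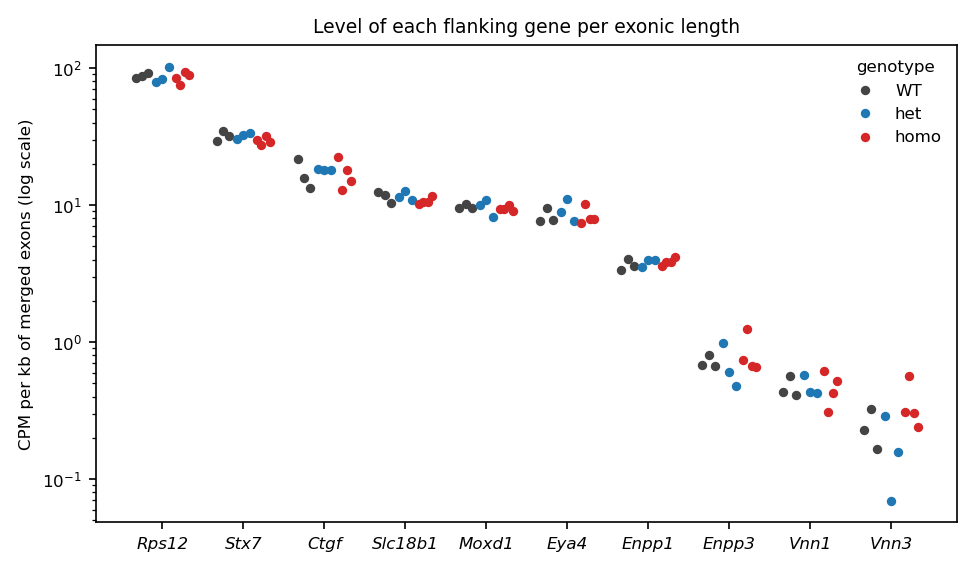
Level of each flanking gene in each library, as CPM per kb of merged exons on a log axis, ordered by the mean and coloured by genotype. The genes span from 0.265 (Vnn3) to 87.4 (Rps12) CPM per kb, and within each gene the 3 genotypes are intermixed.

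The flanking genes also differed in how steady they were. The ratio of the highest to the lowest library was 1.24 for Slc18b1 and Enpp1, 1.27 for Stx7, 1.33 for Moxd1, 1.35 for Rps12, 1.49 for Eya4, 1.71 for Ctgf, 1.99 for Vnn1, 2.6 for Enpp3 and 8.06 for Vnn3. The homo-2 library stood apart among the members. It was the highest library for Vnn3 and Enpp3 and the lowest for 3 genes on the TMM scale, and the median size of its deviations from the mean of the 10 libraries was 0.228 on the log2 scale, against 0.082 to 0.155 in the other 9. Its deviation was 1.11 for Vnn3, 0.79 for Enpp3, -0.51 for Vnn1 and -0.37 for Ctgf.

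**Figure D4:**
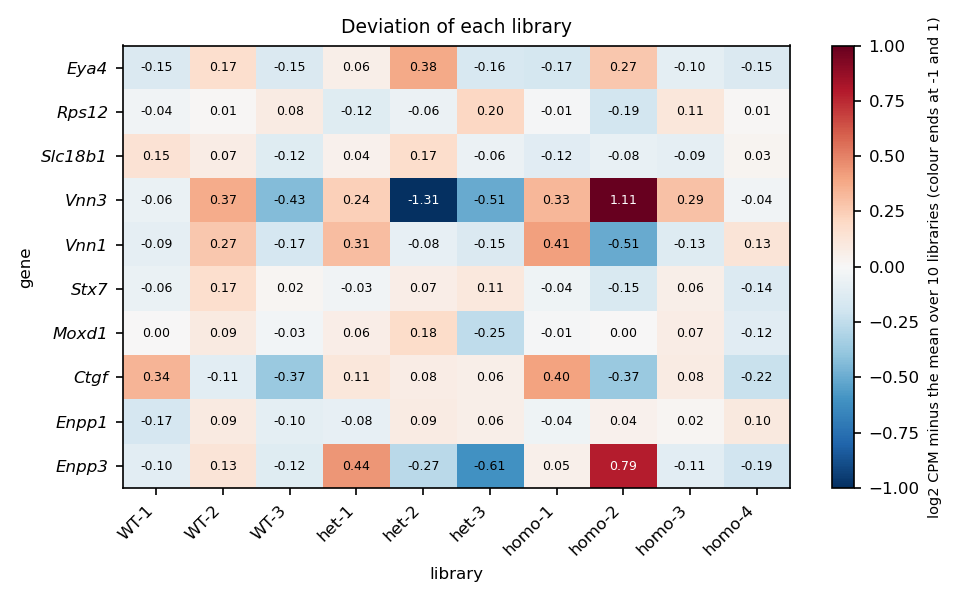
Deviation of each library from the mean of the 10 libraries for each flanking gene, as log2 CPM on the TMM scale, with the value in each cell and colours that end at -1 and 1. The homo-2 column holds the highest values of Vnn3 (1.11) and Enpp3 (0.79), and no genotype has a block of 1 colour.

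Pairs of flanking genes were compared for whether they varied together over the 10 libraries. Of 45 pairs, 0 had a Benjamini-Hochberg adjusted p under 0.05 for Pearson's r (permutation test, two-sided). The most extreme pair was Rps12 and Enpp3, with r = -0.832 (permutation p = 0.00404, adjusted 0.182) and Spearman's rho = -0.588 (permutation p = 0.0802, adjusted 0.623), and r was -0.489 without het-3 and homo-2. Vnn3 and Enpp3 had r = 0.771 (permutation p = 0.0121, adjusted 0.272) and rho = 0.842 (permutation p = 0.00357, adjusted 0.161), and r was 0.727 without het-2 and homo-2. The vanins Vnn1 and Vnn3 had r = -0.0205 (permutation p = 0.958), but 0.718 without het-2 and homo-2. Enpp1 and Enpp3 had r = -0.142 (permutation p = 0.7), and -0.408 without WT-1 and WT-3. Neither the vanins nor these 2 Enpp genes are therefore shown to vary together as a pair, and the value of the vanins depended on single libraries. The same was done for the 10 genes against 11 marker lists of MOE cell types, each summed over its genes that passed the filter. For red blood cells this was 1 of the 5 listed genes. Of 110 relations, 0 had an adjusted p under 0.05. The closest were Vnn3 with basal cell markers (r = 0.848, permutation p = 0.0032, adjusted 0.167, rho = 0.624, permutation p = 0.0599, adjusted 0.585, and r = 0.934 without WT-1 and het-2) and Moxd1 with immature OSN markers (r = -0.80, permutation p = 0.00455, adjusted 0.167, rho = -0.879, permutation p = 0.00173, adjusted 0.19, and r = -0.912 without WT-3 and het-3), beside Enpp1 with the 1 red blood cell gene that passed the filter (r = -0.844, permutation p = 0.00228, adjusted 0.167, rho = -0.745, permutation p = 0.0175, adjusted 0.481, and r = -0.685 without WT-1 and het-1).

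Genes elsewhere in the genome with the most similar pattern over the 10 libraries were listed by Pearson's r of log2 CPM, as a description with no test. Each was picked as the highest r among all tested genes other than the members, over 10 libraries only, so high values can arise by chance. For Eya4 they were Aff4 (r = 0.98) and Atl3 (0.979), for Rps12 Vps37d (0.985) and Cdk1 (0.967), for Stx7 Elavl4 (0.985), an RNA-binding protein of neurons, and Chic2 (0.964), and for Moxd1 Dbt (0.97) and Jak2 (0.954). Slc18b1 was nearest to 2410004B18Rik (0.928) and Bmp2k (0.908), and Ctgf to Ubac2 (0.909) and Dnajb1 (0.892). The genes most like Vnn3 were Prokr1 (0.93, at a mean of only 0.555 CPM) and Spdef (0.928). Those most like Vnn1 were Ccdc61 (0.921) and Ppm1j (0.912). Enpp1 was nearest to Pcdh20 (0.926) and Piwil2 (0.913), and Enpp3 to Ppp1r32 (0.936) and Kctd14 (0.93). Of these 20 genes, Cdk1 alone is on chromosome 10.

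Relatives and pathway partners of the members other than Eya4 were examined in 7 lists, and 0 genes of any list were called in any comparison. Of the other genes for 40S proteins, 30 of 32 tested had negative values between homo and WT (median -0.15, with Rps29 at -0.39, SE 0.269) and 28 of 32 between het and WT (median -0.108). Of all 17197 genes tested, 8593 and 8640 were negative. The smallest unadjusted p in the list was 0.116 and 0.131 in edgeR's test, and the list was not tested as a set. Other scalings of library size also gave 30 and 28, but the TMM factors, 0.983 to 1.025, left them little room to differ. The value of Rps12 itself between homo and WT, -0.034, was nearer to 0 than the list median of -0.15. Of 12 tested genes of vesicular amine transport and polyamine metabolism, to which Slc18b1 belongs, 9 were negative and 3 positive (median -0.050), and Paox, a polyamine oxidase, was at 0.15 (SE 0.164). Of all genes tested, 2.41% had an unadjusted p under 0.05 in edgeR's test between homo and WT and 2.48% between homo and het. Slc18a2, the vesicular monoamine transporter, is below 1 CPM and is named from its values as the 1 gene of the 7 lists with such a p. It had 2, 7 and 3 reads in WT, 2, 5 and 7 in het and 12, 10, 11 and 10 in homo libraries, and homo differed by 1.49 from WT (SE 0.568, unadjusted p = 0.0183, adjusted p = 1 in edgeR's test) and by 1.2 from het (SE 0.554, unadjusted p = 0.0455, adjusted p = 0.999). For the vanins, the 10 genes of pantetheine and coenzyme A metabolism divided 5 and 5 (median -0.0062), with Ado, which oxidizes cysteamine, at -0.099 (SE 0.0893). For Stx7, 11 of 17 genes of endosomal SNAREs and tethers were negative (median -0.0069), and Stx8, a partner of Stx7 in late endosome fusion, was at -0.16 (SE 0.12). For Moxd1, the 6 genes of copper monooxygenases and copper supply divided 3 and 3 (median -0.0037), with the copper chaperone Atox1 at -0.28 (SE 0.182). For Ctgf, 9 of 17 CCN family and YAP target genes were positive (median 0.0073), and Cyr61, a CCN relative of Ctgf, was at 0.38 (SE 0.421). Of the 16 genes of ectonucleotidases and pyrophosphate transport related to Enpp1 and Enpp3, 11 were positive (median 0.039), and Abcc6, a transporter that promotes ATP release, was at 0.50 (SE 0.30). Every named value other than those of Slc18a2 was within 2 SE of 0.

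**Figure D5:**
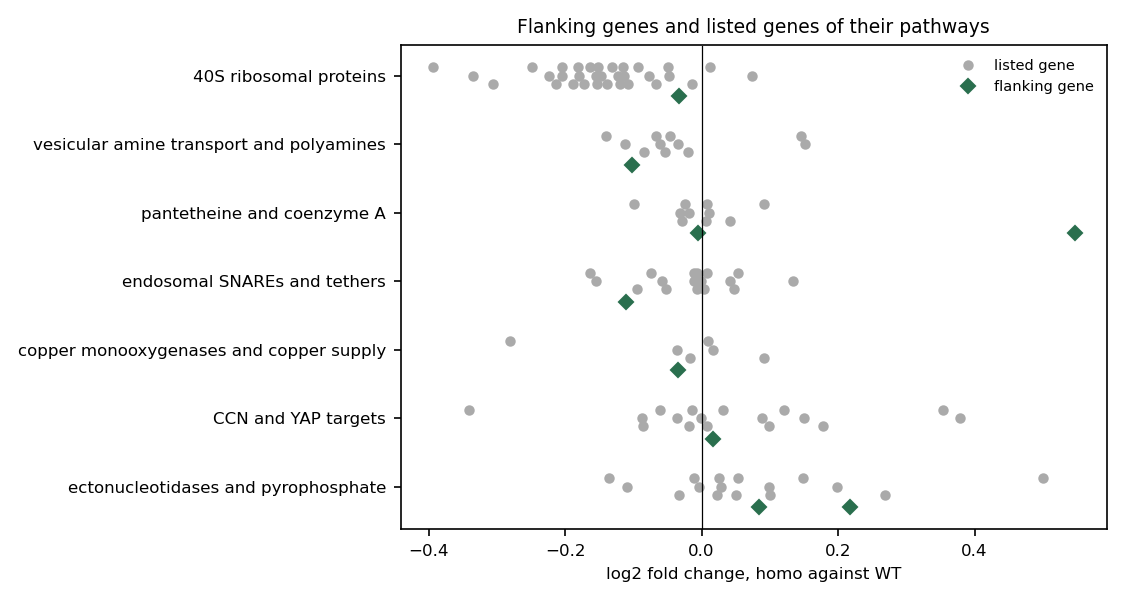
Log2 fold change between homo and WT of the listed genes with a mean of at least 1 CPM (grey points, 7 lists in rows) and of the flanking genes to which each list belongs (green diamonds, the 9 members other than Eya4). The listed genes lie on both sides of 0 except for the 40S ribosomal proteins, of which 30 of 32 lie below it, and Vnn3 is the diamond farthest to the right (0.55).

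Other annotated genes within 1 Mb of the cluster that had a row in the count table were Snora33 and Snord100, which lie inside Rps12, and Med23, Mir6905 and Arg1. Mir6905 did not pass the filter and was not tested. Arg1, the arginase of the urea cycle and of some macrophages, lies 805.7 kb beyond the cluster on the side of Enpp3, at chr10:24915221-24927484. It was the only tested gene among them with an unadjusted p under 0.05, which 2.41% of all genes had between homo and WT. Its counts were 29, 17 and 16 in WT, 8, 18 and 10 in het and 10, 12, 7 and 12 in homo libraries. Every homo library lay below every WT library, and these groups did not overlap for 3.55% of all genes tested. The het-2 library lay within the WT range. Het libraries averaged 0.505 ± 0.22 CPM, at -0.687 from WT on the log2 scale (SE 0.434). Homo was at -0.224 from het (SE 0.438). The difference between homo and WT was -0.91 (SE 0.41), with an unadjusted p of 0.0406 and an adjusted p of 1 in edgeR's test, at means of 0.432 ± 0.0989 and 0.813 ± 0.234 CPM. Med23, a Mediator subunit whose gene lies between Enpp3 and Arg1, measured 42.5 ± 0.347 CPM in WT and 43.2 ± 4.18 CPM in homo libraries, a difference of 0.030 (SE 0.0916).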

How the data were processed

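RNA-seq of whole MOE was analysed from 3 WT, 3 het and 4 homo libraries, grouped and numbered by their sample titles. Per the labels and the methods of the study, the authors prepared directional poly(A) libraries with the NEBNext Ultra Directional kit, processed them with Trimmomatic (0.36) and HISAT2 (2.1.0) on mm10 and counted reads per gene with featureCounts (Subread 1.6.2). These raw counts, as deposited, are what was used here, and the gene annotation behind them, the strand setting and the use of reads with several alignments are not given in the sources used here. A second table of normalized signal, deposited by the authors with each library divided by 1 constant, served an alternative. Date-like names held 27 rows, none of them a flanking gene, and 0 rows had no name.

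CPM was computed from the raw counts and the library totals, which ran from 21423861 to 27712948. The edgeR package (4.0.16, R 4.3.3) was used with filterByExpr (minimum count 10, minimum total count 15), TMM scaling and a robust quasi-likelihood fit of genotype alone over all 10 libraries. It tested 17197 genes, including all 10 flanking genes, two-sided, with Benjamini-Hochberg adjustment over all of them and a threshold of 0.05. Intervals are 95%. Alternatives were DESeq2 (1.42.0) and limma (3.58.1) on log2 of the normalized value plus 1, other scalings and filters, 2 groups only, a covariate for Y-linked counts, a replicate block and leaving out each library. The fit was tested on simulated data. Correlations used 100000 permutations.

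The labels give no pairs, so replicate numbers were checked for pairing by the correlation of deviations from the genotype means. WT-1 and het-1, alike in number, were also the WT and het libraries with Y-linked genes counted. Same-numbered WT and het libraries gave 0.326, 0.285 and 0.235 and were taken as pairs, whereas those of homo with WT (-0.0995, -0.0122 and -0.0734) and with het (-0.148, 0.159 and 0.0676) share only a number. Libraries of 1 genotype differed by more than sampling noise, with chi-square values of 14.2 to 48.4 for each degree of freedom.

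Named genes were the 10 members, other genes within 1 Mb with an unadjusted p under 0.05, the 2 most correlated genes of each member and, from each list, called genes and the largest difference at a mean of at least 1 CPM. A list of genes related to Eya4 is not reported here. The members and the lists were chosen with earlier results of these data known. A planned comparison of protein sequences was not run. Merged exon lengths, overlaps and shared 50-base stretches came from GENCODE M21. Intervals on counts and floors of 3 counts cover counting error only.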

Additional observations from a re-analysis of the deposited data

Results flagged for a closer look

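Of 22 sets of library values checked within the homo group (Dixon's test on groups of 4), 2 had a library apart from the rest, and chance alone flags about 1 in 20. For Enpp3 the homo-2 library stood at 7.52 CPM and the other homo libraries at 3.93 to 4.48 CPM. The summed immature OSN markers stood at 2470 CPM in homo-4 and at 2130 to 2170 CPM in the other homo libraries, and WT libraries (2040 to 2610 CPM) and het libraries (2000 to 2520 CPM) covered that value.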

How the results depend on the processing

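No flanking gene was called under any of the 20 alternatives that gave their values, and the smallest adjusted p among 744 values was 0.743. Of these values 67 changed sign, all within their error. At an unadjusted p under 0.05, Vnn3 between homo and het passed with limma, without het-1 and without homo-4, and Enpp3 without het-1.

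Calls over all genes rose with the replicate block to 19 between homo and WT and to 24 between homo and het, none a flanking gene, and homo-4, alone in its block, added nothing to that fit. The block fitted to WT and het alone, an alternative added after seeing the data, called 3 genes between these genotypes, against 0 with the block in all libraries. Every het library correlated best with the WT library of its own number, and the block changed no call of a member. With DESeq2 the per-allele term called 12 genes. The motif CCCNNGGG fell to 1 flanking promoter in the 250 bases before the start. The causes were not tested, except that the last window is shorter.

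With all libraries kept, signs turned with the Y-gene covariate for Eya4 (-0.0023) and Vnn1 (0.013, per allele 0.0055), and with the replicate block for Moxd1 between homo and WT (0.0026), between homo and het (0.021) and per allele (0.0013), for Enpp1 between homo and het (-0.015) and for Eya4 per allele (0.021).

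Leaving out 1 library at a time turned further signs, and the values then ranged as follows where a sign turned. Between homo and WT they were -0.11 to 0.115 for Eya4, -0.077 to 0.014 for Rps12, -0.17 to 0.145 for Vnn1, -0.147 to 0.23 for Ctgf and -0.062 to 0.33 for Enpp3. Between het and WT they were -0.015 to 0.27 for Eya4, -0.108 to 0.062 for Rps12, -0.0596 to 0.075 for Slc18b1, -0.14 to 0.18 for Vnn1, -0.048 to 0.0697 for Stx7, -0.11 to 0.10 for Moxd1, -0.056 to 0.32 for Ctgf and -0.41 to 0.16 for Enpp3. Between homo and het they were -0.26 to 0.024 for Eya4, -0.10 to 0.077 for Rps12, -0.19 to 0.13 for Vnn1, -0.137 to 0.077 for Moxd1, -0.245 to 0.019 for Ctgf, -0.048 to 0.044 for Enpp1 and -0.0061 to 0.62 for Enpp3. Per deleted allele they were -0.055 to 0.032 for Eya4, -0.039 to 0.0069 for Rps12, -0.085 to 0.067 for Vnn1, -0.073 to 0.089 for Ctgf and -0.031 to 0.165 for Enpp3. Signs held, but with moves of over 1.5 times, for Vnn3 in each comparison, for Slc18b1, Stx7, Moxd1 and Enpp1 between homo and WT and per deleted allele, for Enpp1 between het and WT and for Slc18b1 between homo and het. The homo-2 library set the sign of Enpp3 in the comparisons of homo with WT and with het. The Taar sum kept its difference between homo and WT, -7.97 to -7.62.

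The counts of Vnn3 and Vnn1, under 40 reads in every library, limit what these data can show about the nearest genes on the Taar1 side, while Stx7 on the other side had at least 2777 reads.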
